A study of Rattus norvegicus with 24 samples.

Results

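The cytochrome P450 genes of families 1 to 4 were described in the liver and spleen of rats given cyclophosphamide or vehicle. A gene was taken when the array annotation gave a probe set a single symbol that starts Cyp1, Cyp2, Cyp3 or Cyp4 followed by a letter, with pseudogenes left out. This gave 42 of 14201 genes, with 3 in family 1, 25 in family 2, 4 in family 3 and 10 in family 4. They are covered by 46 probe sets, and where a gene had more than 1, the probe set with the highest mean over the 24 arrays stood for it. All rats were male, wild type Sprague-Dawley animals aged 46 to 49 days. The 4 groups were cyclophosphamide at 40 mg/kg/day by mouth for 5 days without wood sticks, the same drug schedule with wood sticks in the cage, vehicle with wood, and vehicle without wood. Each group held 3 rats, and each of the 12 rats gave 1 liver and 1 spleen array; rats are separate animals and are named by the numbers in the labels. Wood sticks are a gnawing enrichment, and the comparisons ask whether the drug, the enrichment or both move these genes.

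Cytochrome P450 enzymes are haem monooxygenases of the endoplasmic reticulum that insert an oxygen atom into a substrate, using electrons passed on by the reductase Por. Families 1, 2 and 3 oxidise drugs, foreign chemicals and steroids, and family 4 hydroxylates fatty acids and eicosanoids, often at the end of the chain. Hepatocytes carry most of these enzymes, and several are under the control of the receptors Ahr, Nr1i2 (PXR), Nr1i3 (CAR) and Ppara. Cyclophosphamide is an inactive prodrug until a P450 hydroxylates it, which in rat liver is done by enzymes of subfamilies 2B and 2C.

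The sequences below stand directly upstream of the start of the 4 genes that passed the test for the drug in spleen both without and with wood, Cyp1b1, Cyp4b1, Cyp2s1 and Cyp4f5. Each is the 250 bases before the start, from RefSeq on build GRCr8, read 5′ to 3′ on the strand of the gene. They lie at chr6:21094315-21094564 (plus strand) for Cyp1b1, chr5:134393117-134393366 (minus strand) for Cyp4b1, chr1:90453074-90453323 (minus strand) for Cyp2s1 and chr7:12194387-12194636 (plus strand) for Cyp4f5. Capitals mark matches to any of 4 motifs on either strand. The motif GCGTG is the core of the element bound by Ahr with Arnt. The motif TATAAA is the TATA box. The motif CCAAT is named for its own letters. The motif GGGCGG is the GC box.
Cyp1b1: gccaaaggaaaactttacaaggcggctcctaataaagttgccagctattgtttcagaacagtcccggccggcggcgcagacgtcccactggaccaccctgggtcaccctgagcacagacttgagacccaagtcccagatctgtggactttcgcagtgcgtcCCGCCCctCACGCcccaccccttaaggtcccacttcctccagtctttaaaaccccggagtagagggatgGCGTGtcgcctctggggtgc
Cyp4b1: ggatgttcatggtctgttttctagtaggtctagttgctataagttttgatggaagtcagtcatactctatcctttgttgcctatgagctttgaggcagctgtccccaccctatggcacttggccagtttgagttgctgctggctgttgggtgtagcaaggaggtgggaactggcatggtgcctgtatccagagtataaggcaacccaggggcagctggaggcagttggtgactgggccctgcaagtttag
Cyp2s1: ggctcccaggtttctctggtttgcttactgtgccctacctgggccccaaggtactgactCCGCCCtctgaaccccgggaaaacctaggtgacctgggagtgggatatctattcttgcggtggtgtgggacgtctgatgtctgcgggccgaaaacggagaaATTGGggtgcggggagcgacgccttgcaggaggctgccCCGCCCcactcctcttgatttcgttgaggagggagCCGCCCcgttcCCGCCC
Cyp4f5: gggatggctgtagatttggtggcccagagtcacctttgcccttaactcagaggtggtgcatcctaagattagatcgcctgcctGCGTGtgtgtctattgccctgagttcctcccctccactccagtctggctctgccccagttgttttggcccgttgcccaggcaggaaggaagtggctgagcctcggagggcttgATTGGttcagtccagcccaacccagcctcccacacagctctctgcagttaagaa

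Cyp1b1 held 2 GCGTG matches and 1 GGGCGG match, and Cyp4f5 held 1 GCGTG and 1 CCAAT match. Cyp2s1 held 4 GGGCGG matches and 1 CCAAT match, while none of the 4 motifs occurred in the stretch of Cyp4b1. The share of G and C was 59.2% for Cyp1b1, 51.2% for Cyp4b1, 62.4% for Cyp2s1 and 57.2% for Cyp4f5. The median was 51.2% over all promoters and 46.4% over those of the P450 genes. The part of this difference in the motif shares below was not tested. Of the 42 P450 genes, 35 had a promoter in the RefSeq table, and Cyp1a1, Cyp2a2, Cyp2c6v1, Cyp4a1, Cyp4f4, Cyp4f17 and Cyp4v3 had none there. GCGTG occurred in 6 of these 35 (17.1%) and in 25.9% of 33465 promoters of the same length. TATAAA occurred in 10 of 35 (28.6%) and in 12.9% of all, CCAAT in 15 of 35 (42.9%) and 34% of all, and GGGCGG in 10 of 35 (28.6%) and 30.5% of all. None of the 4 motifs contains another, and a match is a description of the sequence only.

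Across the whole series, liver arrays had 4924 to 6060 blank cells of 30980 probe sets and spleen arrays 1021 to 1920, with array medians between 89.7 and 101.4 for liver and between 113.2 and 121.2 for spleen. The liver array of rat 2003 (drug, no wood) stood apart with the highest blank count, and its values correlated with those of the remaining livers at 0.847 on average, while each of those reached at least 0.906. In spleen, the 3 vehicle arrays without wood and that of rat 2005 (drug, no wood) had 1778 to 1920 blanks and are called blank-rich, and the other 8 had 1021 to 1183. All 3 vehicle spleens without wood therefore lie on the side with many blanks, and all spleens with wood on the other. The tissue labels were met by their markers: the summed intensity of 10 hepatocyte genes lay between 91404 and 102566 in liver and between 280 and 934 in spleen, and that of 4 B cell genes was 371 to 655 in liver and 12048 to 15928 in vehicle spleens.

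The P450 genes were mostly transcripts of liver. Of the 33 that had values in all 8 groups of rats and tissues, 31 passed an adjusted p of 0.05 for liver minus spleen in limma, 25 higher and 6 lower in liver. Among all genes 85.6% passed, 21.8% higher and 63.8% lower. In a whole organ, fewer cells of a type and less RNA per cell cannot be told apart. The median change of the 33 was 4.46 on the log2 scale, and that of all tested genes was −0.71, or −0.35 after quantile normalization. The directions given here were the same under both scalings.

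The 10 genes with the brightest liver signals were Cyp2e1, which oxidises ethanol and small solvents, the 2C enzymes Cyp2c6v1, Cyp2c7, Cyp2c11 and Cyp2c23, the debrisoquine hydroxylase Cyp2d2, Cyp2b3, the steroid and drug hydroxylases Cyp3a2 and Cyp3a23-3a1, and the fatty acid hydroxylase Cyp4a3. The log2 intensity of these 10 averaged from 12.70 to 13.45 over the 12 livers. Intensities of different probe sets do not measure relative RNA amounts, so no order among genes is drawn from them. Cyp2e1 stood at 13.44 in liver and 5.52 in spleen (means of 12 arrays), a difference of 7.93 ± 0.08 (SE). Cyp2c13 differed by 9.10 ± 0.23 between liver and spleen, Cyp2d2 by 8.60 ± 0.11 and Cyp2c23, an arachidonic acid epoxygenase, by 8.58 ± 0.19. For each of these genes every liver was above every spleen. The sizes depend on how dim spleen values are handled: with an offset of 16 added to each intensity, the differences were 7.762 for Cyp2c13, 7.834 for Cyp2d2 and 7.769 for Cyp2c23. Cyp2c13 was blank on 2 of the 12 spleen arrays.

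The 6 genes lower in liver than in spleen included enzymes known from other organs. Cyp1b1, which oxidises oestrogens and polycyclic hydrocarbons, averaged 8.15 in liver and 10.35 in spleen (difference −2.20 ± 0.16, adjusted p = 1.76e-10 in limma). The fatty acid hydroxylase Cyp2u1 averaged 5.74 in liver and 7.89 in spleen (−2.15 ± 0.16). The others were Cyp4f5 (−1.95), Cyp2a3 of the nasal mucosa (−1.68, or −1.04 with the offset), Cyp4f17 (−1.55) and Cyp2s1 (−1.11). Cyp4b1, a lung enzyme, averaged 8.67 in liver and 8.87 in spleen, a difference of −0.21 with an interval from −0.42 to 0.00 that did not pass. This mean joins opposite differences. Vehicle rats had 8.59 to 8.84 in liver and 8.02 to 8.30 in spleen, and drug rats had 8.14 to 9.11 in liver and 9.29 to 9.84 in spleen. Cyp2j10 at 0.29 (−0.27 to 0.86) did not pass either. Cyp2b21, higher in liver by 0.78 ± 0.30, lost its call with the offset of 16 and without 1001, 2001 or 4003. With the mean of all probe sets the liver excess was 0.84 for Cyp2d4, against 1.43 with its brightest one, and 1.25 for Cyp4a8, against 2.45.

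**Figure D1:**
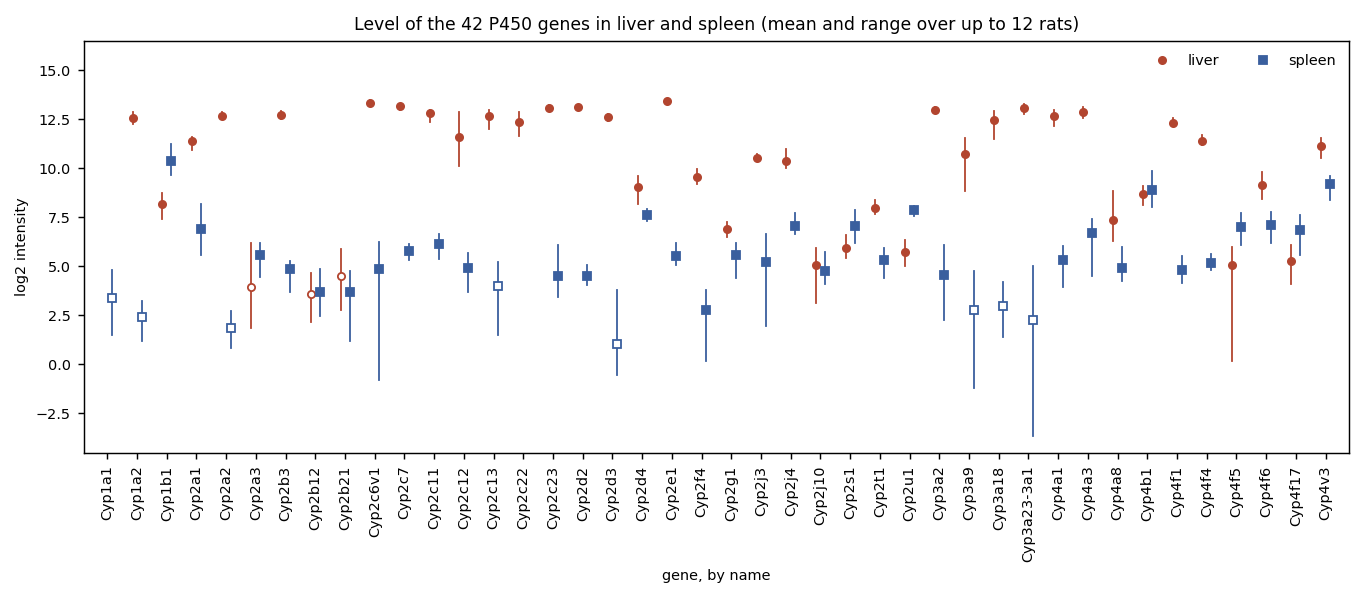
Log2 intensity of each of the 42 P450 genes in liver (red circles) and spleen (blue squares); symbols are means, bars run from the lowest to the highest of up to 12 rats, and open symbols mark genes blank on some arrays of the tissue. Cyp2e1 stood at 13.44 in liver and 5.52 in spleen, while Cyp1b1 stood at 8.15 in liver and 10.35 in spleen.

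Several P450 genes were measured poorly in 1 tissue. Of the 42, 38 had a value on all 12 liver arrays and 33 on all 12 spleen arrays. Cyp1a1 was blank on every liver array and Cyp2c22 on every spleen array. In spleen, Cyp1a2, Cyp2a2, Cyp2d3 and Cyp3a18 had 4, 3, 3 and 4 values of 12, and Cyp1a1, Cyp3a9 and Cyp3a23-3a1 had 8 each. Against the median gene of the tissue, 33 of the 42 probe sets were as bright or brighter in liver and 4 in spleen, namely Cyp1b1, Cyp2u1, Cyp4b1 and Cyp4v3. The test was thus possible for 40 genes in liver (not for Cyp1a1 and Cyp2b12) and for 34 in spleen.

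In liver, the drug moved few P450 genes. Cyp4f6, a hydroxylase of leukotrienes and fatty acids, fell, and Cyp2g1, known from the olfactory mucosa, rose. The drug-activating enzymes Cyp2c6v1 and Cyp2c11 and the steroid hydroxylases Cyp3a2 and Cyp3a23-3a1 did not pass. With 6 drug rats set against 6 vehicle rats in limma, 2 of 40 tested P450 genes had an adjusted p below 0.05, 1 of them higher and 1 lower, and 3 had an unadjusted p below 0.05. Among all 12683 tested genes 0.812% passed, 0.166% higher and 0.647% lower. The median change of the 40 was −0.01 and that of all genes −0.02.

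Cyp4f6 had 8.71, 8.97 and 8.72 in drug livers without wood and 8.93, 8.43 and 8.89 in drug livers with wood, against 9.07, 9.57 and 8.996 in vehicle livers without wood and 9.83, 9.74 and 9.80 in vehicle livers with wood (log2 intensity). Every drug liver lay below every vehicle liver. The log2 change was −0.72 ± 0.13 (SE; adjusted p = 0.038), a level 1.65-fold lower under the drug. The change was −0.41 without wood and −1.04 with wood, and neither passed on its own (adjusted p = 0.412 and 0.132). It kept its call under the other 6 settings tried, but in the 12 refits without 1 rat it passed only without 2003 or 4001, with adjusted p up to 0.1.

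Cyp2g1 had 7.21, 7.23 and 7.17 in drug livers without wood and 6.75, 7.25 and 7.22 in drug livers with wood, against 6.74, 6.67 and 6.62 in vehicle livers without wood and 6.57, 6.48 and 6.65 in vehicle livers with wood. The ranges did not overlap, although rat 4001 of the drug group lay next to the vehicle rats. The log2 change was 0.52 ± 0.10 (adjusted p = 0.0465), or 1.43-fold. Without 1 rat it passed only without 4001, and adjusted p ran up to 0.114. It was also lost with quantile normalization, with the mean of all probe sets and with eBayes trend and robust.

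Cyp2d3 was the other gene whose groups did not overlap in liver. Its lowest, median and highest values were 12.41, 12.52 and 12.66 in drug livers and 12.67, 12.71 and 12.77 in vehicle livers. Its change of −0.18 ± 0.06 did not pass (adjusted p = 0.262). Thus 3 of the 38 genes with 12 liver values did not overlap, 1 above and 2 below the vehicle rats, while 2.89% of all such genes did not (1.06% above, 1.82% below).

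The 2C enzymes that activate cyclophosphamide in rat liver did not pass. Cyp2c6v1 had 13.26, 13.40 and 13.46 (lowest, median and highest) in drug livers and 13.21, 13.31 and 13.34 in vehicle livers, a change of 0.09 with a 95% interval from −0.04 to 0.23. Cyp2c11, the male-specific steroid hydroxylase, had 12.37, 12.76 and 12.96 in drug livers and 12.70, 12.94 and 12.99 in vehicle livers, a change of −0.17 (−0.43 to 0.08). Groups of both genes overlapped. The only 2B genes with a probe set of their own were Cyp2b3 at −0.15 (−0.34 to 0.03), Cyp2b21 at 0.99 (−0.02 to 1.99, with 11 values) and the untested Cyp2b12.

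Tested genes listed as targets of the drug-sensing receptors did not pass in liver either. Of the AHR targets, Cyp1a2 changed by 0.14 (−0.13 to 0.41) and Cyp1b1 by −0.02 (−0.68 to 0.65). Of 6 tested genes listed as CAR and PXR targets 0 passed (0 at an unadjusted p below 0.05; median 0.06), with Cyp3a23-3a1 at 0.04 (−0.16 to 0.24). The others were Cyp2b3, Cyp2c6v1, Cyp2c7, Cyp3a9 and Cyp3a18. Cyp2b1 and Cyp2b2, which share a probe set, were not tested. Of 3 PPARA targets 0 passed (0 unadjusted; median −0.21), among them Cyp4a1 at −0.24 and Cyp4a3 at −0.04. The median of all genes was −0.02. Larger estimates that did not pass were those of Cyp4f5 (−0.61), Cyp2d4 (−0.40), Cyp2u1 (−0.34) and Cyp2s1 (0.27). The value of Cyp4f5 rests on rat 2003, without which it was 0.35 (adjusted p = 0.424 in limma).

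The sex-dependent enzymes did not pass in liver. Of 4 male-predominant genes 0 passed (0 unadjusted; median −0.11), with Cyp3a2 at −0.04 (−0.19 to 0.11) and Cyp2c13 at −0.27. Of 4 female-predominant genes 0 passed (0 unadjusted; median 0.36). Cyp2c12, the female-specific 2C enzyme, ran from 10.78 to 12.85 in drug livers and from 10.13 to 12.51 in vehicle livers, a change of 0.72 ± 0.45 (−0.29 to 1.72). All these rats were male, and whether its probe set also reads transcripts of related 2C genes was not tested. Cyp3a9 ran from 10.57 to 11.55 in drug livers and from 8.85 to 11.29 in vehicle livers, a change of 0.60 ± 0.42. In both genes the groups overlapped and single rats differed by more than the groups did.

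**Figure D2:**
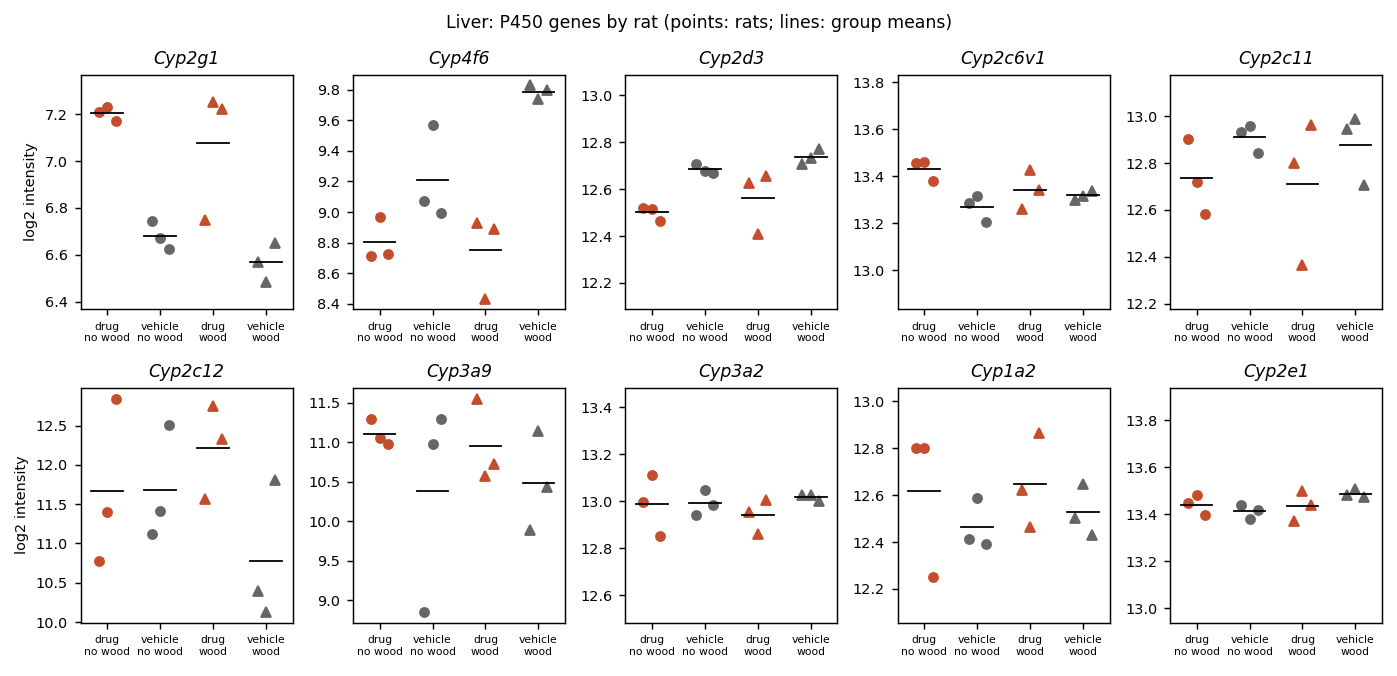
Log2 intensity in liver of 10 P450 genes by rat, with drug left of vehicle in each housing (circles without wood, triangles with wood, lines group means; each vertical axis has its own range of at least 1 log2 unit). Cyp4f6 lies lower in all 6 drug rats and Cyp2g1 higher, while Cyp2c12 spreads from 10.13 to 12.85 across rats.

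The spread between rats of a group varied widely among the liver P450 genes. The within-group SD was 0.04 for Cyp2e1 and 0.06 for Cyp2c6v1, and 0.519% and 1.91% of 5400 genes at or above the median level had a smaller one. The median of those 5400 genes was 0.17. Both genes lie close to the brightest probe set of each liver array, which had a log2 intensity of 13.74 to 13.96, and whether the signal is compressed there was not tested. Cyp2c12 had 0.84, Cyp4a8 0.79, Cyp3a9 0.79 and Cyp1b1 0.55, with 99.3%, 99.2%, 99.1% and 97.3% of the bright genes below them. The SD of 1.69 for Cyp4f5 rested on rat 2003, at 0.16 while the other 11 livers lay between 4.76 and 5.99. A change in these variable genes would have had to be larger to pass.

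Within each housing, 0 of 40 P450 genes passed in liver. Without wood 2 had an unadjusted p below 0.05 in limma and 0.15% of all genes passed, and with wood 5 had one and 0.0473% of all genes passed. For the wood effect in liver 0 of 40 passed (0 unadjusted; 0% of all genes), the smallest p being that of Cyp4a3 at −0.19 ± 0.09. For the difference of the drug effects between the housings 0 of 40 passed (3 unadjusted; 0% of all genes): Cyp4f4 at −0.54 ± 0.16, Cyp4v3 at 0.77 ± 0.27 and Cyp4f6 at −0.63 ± 0.26 had the smallest p values, with adjusted p of at least 0.935.

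Liver markers moved with the drug only for some cell types. The summed intensity of hepatocyte genes was 91404 to 102566 in drug livers and 92432 to 100762 in vehicle livers, with 0 of 10 past the threshold (1 unadjusted). That of 8 Kupffer cell and macrophage genes was 3198 to 5510 in drug livers and 6506 to 8515 in vehicle livers, and 4 of 8 were lower (Adgre1, C1qa, Clec4f, Csf1r). Erythroid genes summed to 105 to 274 in drug livers and 350 to 566 in vehicle livers, 1 of 5 tested being lower. Of the liver tests on B cell, T cell, stroma, endothelial, pancreas and granulocyte genes 0 passed, with an unadjusted p below 0.05 for 1 B cell, 0 T cell, 1 stroma, 2 endothelial, 1 pancreas and 1 granulocyte gene. The part of these shifts in the results for Cyp4f6 and Cyp2g1 was not tested.

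In spleen, the drug response of the P450 genes ran in both directions. Cyp1b1, Cyp4b1, the epoxygenase Cyp2j3 and the fatty acid hydroxylase Cyp4v3 rose. Cyp2s1, Cyp2a1, Cyp2g1, Cyp4a8, Cyp4f1 and Cyp4f5 fell. In limma, 10 of 34 tested P450 genes passed (10 at an unadjusted p below 0.05), 4 higher and 6 lower, whereas 55% of all 13614 tested genes passed, 26.9% higher and 28.1% lower. Among genes at or above the median level, 3 of 4 P450 genes and 4980 of 7101 genes in all passed, and no difference between P450 genes and other genes was tested. The median change of the 34 was 0.12 and that of all genes −0.02.

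Cyp1b1 had 10.90, 11.24 and 10.95 in drug spleens without wood and 11.02, 10.75 and 10.68 in drug spleens with wood, against 9.72, 9.89 and 9.81 in vehicle spleens without wood and 9.87, 9.64 and 9.70 in vehicle spleens with wood. All 6 drug spleens lay above all 6 vehicle spleens. The log2 change was 1.15 ± 0.09 (adjusted p = 4.1e-06), a 2.22-fold level. It was 1.23 ± 0.12 without wood and 1.08 ± 0.12 with wood.

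Cyp4b1, which in lung bioactivates foreign chemicals, had 9.58, 9.65 and 9.31 in drug spleens without wood and 9.65, 9.29 and 9.84 in drug spleens with wood, against 8.28, 8.21 and 8.28 in vehicle spleens without wood and 8.30, 8.10 and 8.02 in vehicle spleens with wood. The groups were about 1 log2 unit apart at their nearest rats. The change was 1.35 ± 0.10 (adjusted p = 4.11e-06), a 2.56-fold level, with 1.25 without wood and 1.45 with wood.

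Cyp2s1, an enzyme of epithelia outside the liver, moved the other way. It had 6.32, 6.49 and 6.18 in drug spleens without wood and 6.65, 6.78 and 7.06 in drug spleens with wood, against 7.17, 7.27 and 7.46 in vehicle spleens without wood and 7.61, 7.90 and 7.72 in vehicle spleens with wood. Every drug spleen was below every vehicle spleen. The change was −0.94 ± 0.10 (adjusted p = 2.57e-05), a level 1.92-fold lower, with −0.97 without wood and −0.91 with wood.

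Cyp4f5, a member of the leukotriene hydroxylase subfamily, had 6.50, 6.10 and 6.72 in drug spleens without wood and 6.93, 6.89 and 6.98 in drug spleens with wood, against 7.09, 7.04 and 7.27 in vehicle spleens without wood and 7.73, 7.20 and 7.56 in vehicle spleens with wood. The groups did not overlap, though drug rats with wood came close to vehicle rats without it. The change was −0.63 ± 0.12 (adjusted p = 0.00158), with −0.69 without wood and −0.57 with wood. With a batch term for blank-rich arrays the change without wood was −0.41 and no longer passed (adjusted p = 0.194), and the change with wood, where all arrays had few blanks, lost its call without 3001, 3005, 4001, 4003 or 4005.

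Cyp2j3, which makes epoxides of arachidonic acid, had 5.59, 6.61 and 6.34 in drug spleens without wood and 6.66, 5.80 and 6.18 in drug spleens with wood, against 5.40, 4.92 and 5.23 in vehicle spleens without wood and 1.96, 4.29 and 3.90 in vehicle spleens with wood. The groups did not overlap, and the vehicle rats with wood were the lowest. The change was 1.91 ± 0.38 (adjusted p = 0.00174), with 2.83 with wood. With the offset of 16 it was 1.23, and 1.69 with wood, and both passed. Without wood Cyp2j3 did not pass. Its second probe set ran from 6.10 to 6.65 in drug spleens and from 4.96 to 6.37 in vehicle spleens, and there the groups overlapped.

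Cyp1b1, Cyp2j3 and Cyp4b1 above the vehicle rats, and Cyp2s1 and Cyp4f5 below them, were 5 of the 33 P450 genes with 12 spleen values whose groups did not overlap. Among all such genes 31.2% did not overlap, 16.1% above and 15.1% below. The calls of these 5 genes over both housings held in each of 12 refits without 1 rat.

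Cyp2a1, a steroid hydroxylase that is female-predominant in rat liver, was higher on blank-rich arrays than on the others of the same treatment. It had 5.60, 5.70 and 7.68 in drug spleens without wood and 6.09, 5.94 and 6.46 in drug spleens with wood, against 8.12, 7.99 and 8.15 in vehicle spleens without wood and 7.13, 6.97 and 7.05 in vehicle spleens with wood. The outlying 7.68 belongs to rat 2005, whose array had many blanks like those of the vehicle rats without wood. Among drug rats the pattern rests on this array, and among vehicle rats blanks and wood cannot be told apart. The change was −1.33 ± 0.32 (adjusted p = 0.00528), and −0.65 ± 0.11 with a batch term for blank-rich arrays (adjusted p = 0.00119). With wood, where all arrays had few blanks, the change was −0.89 in both fits. It passed with the batch term (SE 0.13, adjusted p = 0.000593) and not without it (SE 0.45, adjusted p = 0.149). The term fits rat 2005 apart and so takes its outlying value out of the spread shared by the groups. A probe set shared by Cyp2a2 and Cyp2a1 was in no comparison and did not show this fall. It had 5.575, 6.64 and 6.84 (lowest, median and highest) in drug spleens and 4.32, 5.94 and 6.75 in vehicle spleens, with overlap.

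The other genes that passed, Cyp4v3, Cyp2g1, Cyp4f1 and Cyp4a8, overlapped between the groups, as did Cyp2a1. Cyp4v3, whose human homologue hydroxylates fatty acids, had 9.13, 9.44 and 9.63 (lowest, median and highest) in drug spleens and 8.39, 9.12 and 9.22 in vehicle spleens, a change of 0.41 ± 0.14 (adjusted p = 0.0313). It passed in 6 of 12 refits and was lost without 1003, 1005, 2001, 2005, 4001 or 4003, and with the mean of all probe sets (adjusted p = 0.0572). Cyp2g1 had 4.42, 5.42 and 5.66 in drug spleens and 5.40, 5.94 and 6.20 in vehicle spleens, a change of −0.59 ± 0.19 (adjusted p = 0.0222). It was lost without 1003 (adjusted p = 0.0527) and with a batch term for blank-rich arrays (adjusted p = 0.0817).

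Cyp4f1 and Cyp4a8 stood highest in the vehicle rats without wood, all of whose arrays had many blanks. Cyp4f1 had 4.17, 4.59 and 5.16 in drug spleens and 4.53, 4.95 and 5.54 in vehicle spleens, a change of −0.40 ± 0.10 (adjusted p = 0.00717). With a batch term for blank-rich arrays the change was −0.25 (adjusted p = 0.0522), with eBayes trend and robust the call was lost too (adjusted p = 0.0652), and with the offset the change was −0.26. Cyp4a8, a fatty acid hydroxylase, had 4.26, 4.59 and 5.02 in drug spleens and 4.65, 5.22 and 5.96 in vehicle spleens, a change of −0.63 ± 0.13 (adjusted p = 0.00264). This call belongs to 1 probe set, since the mean of its probe sets gave 0.01.

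**Figure D3:**
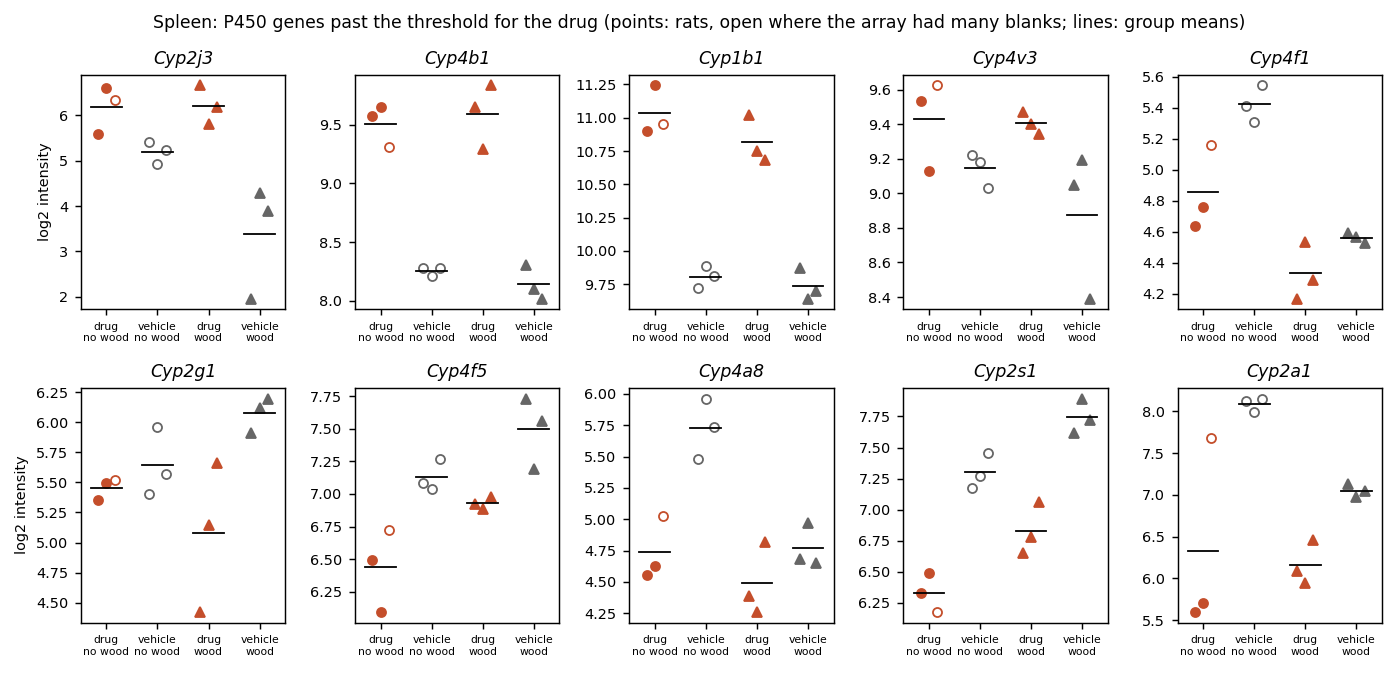
Log2 intensity in spleen by rat of the 10 P450 genes that passed for the drug, with drug left of vehicle in each housing (circles without wood, triangles with wood, lines group means; open symbols mark the 4 arrays with many blanks; each vertical axis has its own range). Cyp1b1 and Cyp4b1 lie higher in all 6 drug rats, Cyp2s1 lies lower in all 6, and the open drug point of Cyp2a1 at 7.68 lies near the vehicle rats without wood.

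Other large estimates in spleen did not pass. Cyp2c6v1 changed by −1.89 ± 0.89 (adjusted p = 0.0979), with rat 2005 at −0.81 while the other 5 drug spleens lay at 4.43 to 5.26 and the vehicle spleens at 5.12 to 6.27. Without rat 2005 the change was −0.93 ± 0.22 and passed (adjusted p = 0.00557 in limma). With wood, Cyp2c6v1 ran from 4.43 to 4.98 in drug spleens and from 5.71 to 5.91 in vehicle spleens, a change of −1.01. This change did not pass with all rats (adjusted p = 0.579 in limma). It passed without rat 2005, a rat of another group that widens the shared spread (adjusted p = 0.0212). Cyp2f4 changed by 1.22 ± 0.62 and Cyp3a2 by −0.85 ± 0.51. The batch term for blank-rich arrays rests on rat 2005 against 2001 and 2003, the only group with both kinds of array. With it 12 P450 genes passed, beside 6544 of 13342 genes in all. Of these 12, 4 did not pass over both housings in the fit of all rats without the term. They were Cyp2c6v1 (−3.81), Cyp3a2 (−1.68), Cyp2c13 (1.18) and Cyp2j10 (0.90). The −3.81 of Cyp2c6v1 carries the value of −0.81 in rat 2005. Cyp2u1, one of the 4 bright spleen genes, changed by 0.04 with an interval from −0.17 to 0.26. Cyp2j4 (0.26 ± 0.15) and Cyp2t1 (0.13 ± 0.25) did not pass either. The tested AHR target (Cyp1b1) was higher, and 0 of 4 genes listed as CAR and PXR targets passed (0 unadjusted). Of 3 male-predominant genes 0 passed (0 unadjusted), 1 of 3 female-predominant genes was lower (Cyp2a1), and 1 of 3 PPARA targets was lower (Cyp4a8). The call of Cyp4a8 was lost with the mean of its probe sets. Over all spleen genes 26.9% were higher and 28.1% lower, so these counts set no class apart.

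**Figure D4:**
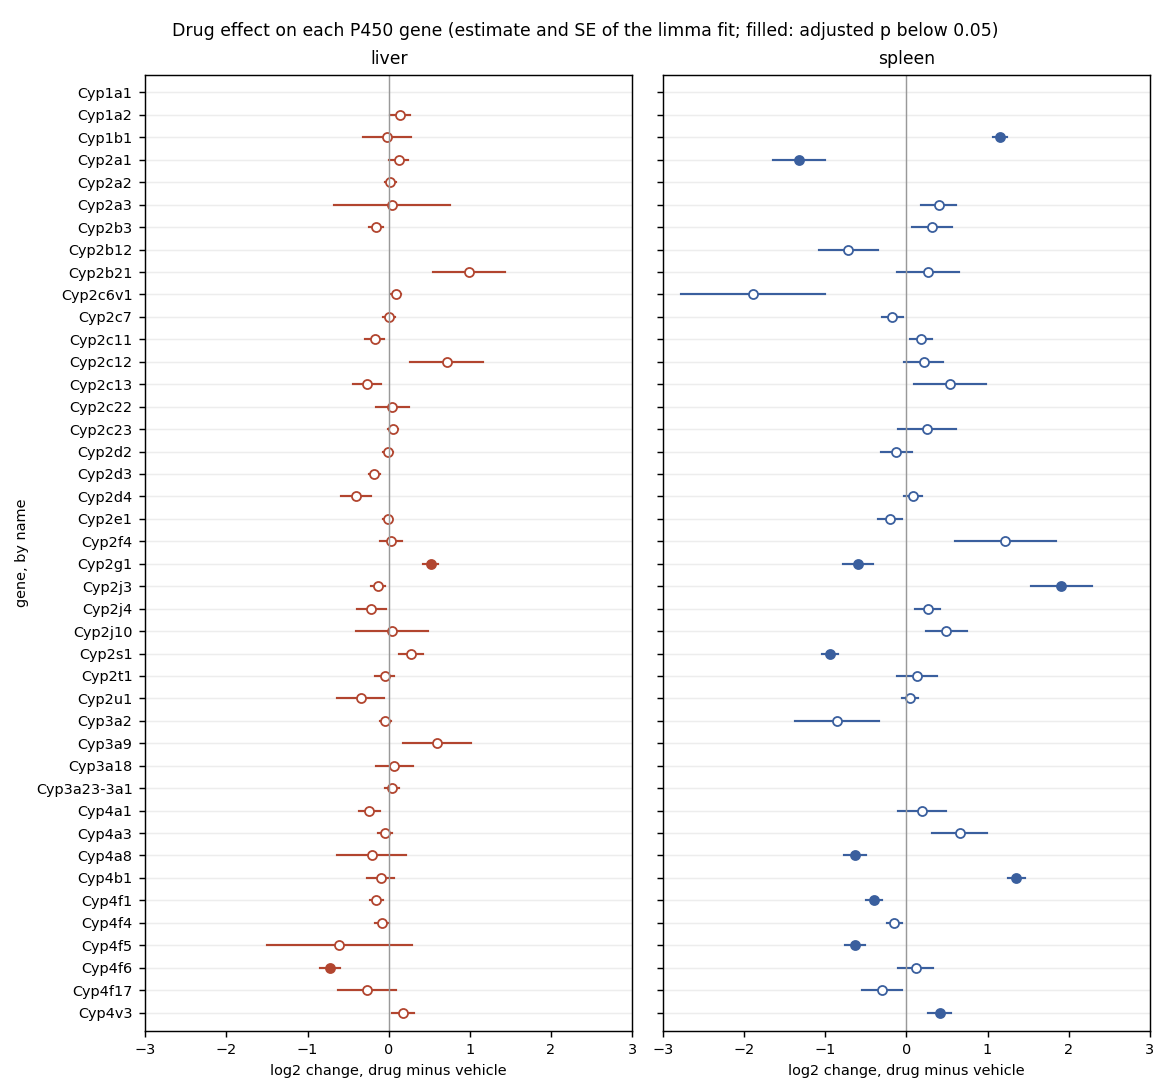
Log2 change, drug minus vehicle, of each tested P450 gene in liver (left) and spleen (right); points are limma estimates over both housings, bars ± 1 SE, and filled points have an adjusted p below 0.05. In liver 2 points are filled and in spleen 10, from −1.33 for Cyp2a1 to 1.91 for Cyp2j3.

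Without wood, 9 of 34 P450 genes passed in spleen (14 unadjusted), 4 higher and 5 lower, and 45.1% of all genes passed, 22.7% higher and 22.4% lower. Beside Cyp1b1, Cyp4b1, Cyp2s1, Cyp4f5, Cyp2a1 (−1.76), Cyp4a8 (−0.99) and Cyp4f1 (−0.57), these were Cyp2a3 at 0.87 ± 0.30 and Cyp2c11 at 0.60 ± 0.19. Here the vehicle arrays all have many blanks and 1 of 3 drug arrays does. With the division as a batch term 5 of 34 P450 genes passed, beside 3658 of 13342 genes in all. These 5 were Cyp1b1 at 1.14, Cyp4b1 at 1.05, Cyp2s1 at −1.12, Cyp2c6v1 at −6.62 and Cyp3a2 at −2.49. Cyp2c6v1 and Cyp3a2 did not pass in the fit of all rats without the term. For Cyp2c6v1 the term carries the value of −0.81 in rat 2005, and without that rat the change was −0.84 (adjusted p = 0.0567 in limma). In the same fit Cyp2a1, Cyp2a3, Cyp2c11, Cyp4a8, Cyp4f1 and Cyp4f5 did not pass. Cyp2a3 was lost without any of 7 rats and Cyp2c11 without any of 3 (1001, 2001, 2005), and those for Cyp2a3 were 1001, 1005, 2001, 2003, 3003, 4001 and 4003. Without 2005 the count was 14.

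With wood, all 6 spleen arrays have few blanks. There 7 of 34 P450 genes passed (8 unadjusted), 4 higher and 3 lower, and 38.4% of all genes passed, 19.9% higher and 18.5% lower. They were Cyp2j3, Cyp4b1, Cyp1b1, Cyp2c13 at 2.44 ± 0.73, Cyp2g1 at −0.998 ± 0.27, Cyp2s1 and Cyp4f5. Cyp2c13, a male-predominant liver enzyme, rested on 1 vehicle value, 1.495, as the other 2 vehicle arrays with wood were blank, and it was lost without 4001 or 4005. With the offset of 16 its change was 0.90. For the difference of the drug effects between the housings 0 of 34 passed (6 unadjusted; 0.705% of all genes), and leaving out 1 rat gave 0 to 3, with 3 without 2005 and 1 without 1001. Cyp2c13 at 3.80 ± 0.89, Cyp2c11 at −0.85 ± 0.27 and Cyp4a8 at 0.72 ± 0.27 had the smallest p values.

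For wood minus no wood in spleen, 7 of 34 P450 genes passed (15 unadjusted), 3 higher and 4 lower, beside 12.1% of all genes (6.05% higher, 6.05% lower). Cyp2c12 (1.14 ± 0.24), Cyp2s1 (0.47 ± 0.10) and Cyp4f5 (0.43 ± 0.12) were higher with wood, and Cyp2c13 (−1.71 ± 0.45), Cyp4f1 (−0.69 ± 0.10), Cyp4a8 (−0.60 ± 0.13) and Cyp4f4 (−0.42 ± 0.10) lower. All 7 calls were lost with a batch term for blank-rich arrays, with which 40 of 13342 genes in all passed. The term made 1 other call, Cyp2c6v1 at −2.996, which was 0.85 without the term and −0.11 without rat 2005, both short of the threshold. With the offset of 16 the wood changes of Cyp2c12, Cyp2c13 and Cyp4f1 were 0.72, −0.78 and −0.44, and all 3 passed. Among vehicle rats, wood and the division by blanks cannot be told apart. Without 1 rat, Cyp2s1 and Cyp4f1 passed in 12 of 12 refits, Cyp2c12 was lost without 4005, Cyp4a8 without 1003, 3001, 3005 or 4003, and Cyp4f4 without 1003, 1005, 3001, 3003, 4001 or 4003. Cyp4f5 passed only without 2005 or 3003 and Cyp2c13 only without 2003 or 2005. In all, 3 calls were left without 1003, 3001 or 4003 and 4 without 4001 or 4005.

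The drug response differed between liver and spleen for 7 of 33 P450 genes (9 unadjusted), 3 higher and 4 lower for liver minus spleen, beside 33.1% of all genes (14.7% higher, 18.4% lower). Cyp1b1 changed by −0.02 in liver and 1.15 in spleen, a difference of −1.17 ± 0.32 (adjusted p = 0.00858). Cyp4b1 changed by −0.10 in liver and 1.35 in spleen, and Cyp2j3 by −0.13 in liver and 1.91 in spleen, a difference of −2.04, or −1.36 with the offset. Cyp2s1 changed by 0.27 in liver and −0.94 in spleen, and Cyp2a1 by 0.12 in liver and −1.33 in spleen. Cyp2g1 passed in both tissues with opposite signs, 0.52 in liver and −0.59 in spleen, and the difference of 1.11 ± 0.22 passed (adjusted p = 0.000705). Its liver call held in only 1 of 12 refits without 1 rat. Its spleen call was lost without 1003 and with the batch term for blank-rich arrays, and by housing it passed only with wood (−0.998). Cyp4f6 changed by −0.72 in liver and 0.11 in spleen, and its difference lost the call without 1003 or 4003.

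The partners of the P450 enzymes were described from lists of known genes. Por, which feeds electrons to every P450 of the endoplasmic reticulum, had 8.96, 9.14 and 9.55 (lowest, median and highest) in drug spleens and 8.01, 8.25 and 8.47 in vehicle spleens, a change of 0.93 ± 0.11 (adjusted p = 6.82e-05). In liver Por had 9.68, 10.27 and 11.01 under the drug and 9.99, 10.72 and 10.96 under vehicle, and its change of −0.30 ± 0.22 did not pass. Of 13 partner and haem supply genes, 4 were higher and 7 lower in spleen, and 1 was higher in liver (Cyb5b, 0.42 ± 0.07, adjusted p = 0.038). The shares over all genes were 26.9% higher and 28.1% lower in spleen, and 0.166% higher in liver. In spleen Alas1, the rate-limiting haem enzyme of most cells, rose by 0.68 ± 0.12 and Hmox1, which degrades haem, by 0.94 ± 0.09, together with Pgrmc1. The haem synthesis enzymes Fech (−3.16 ± 0.21), Alad (−2.78 ± 0.28), Cpox, Ppox, Urod and Uros fell, as did Cyb5b. The summed intensity of 6 erythroid genes was 478 to 792 in drug spleens and 7749 to 15956 in vehicle spleens, and its part in the fall of the haem enzymes was not tested.

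Of 16 tested regulators of P450 genes, 6 were higher and 0 lower in spleen, and in liver 0 of 15 passed (1 unadjusted). For this and the other lists below, the shares over all genes were 26.9% higher and 28.1% lower in spleen. In liver 0.812% of all genes passed. The aryl hydrocarbon receptor Ahr, whose known targets include Cyp1b1, had 6.93, 7.14 and 7.36 in drug spleens and 5.16, 6.07 and 6.43 in vehicle spleens, a change of 1.17 ± 0.18 (adjusted p = 0.000384). Its partner Arnt rose by 0.72 ± 0.16 and the retinoid partner Rxra by 1.86 ± 0.28. Cebpb, Nfe2l2 and Nr3c1 also rose, while Nr1i2 at −0.11 and Nr1i3 at 0.11 did not pass. Of 8 other drug metabolism genes 3 were higher in spleen (Aldh3a1, Nqo1 and Tiparp at 1.08, 0.94 and 0.20) and Abcb1a was lower. In liver 1 of 9 was higher, Gsta3 at 2.89 ± 0.43. Of the P450 genes of other families, 2 of 15 were higher in spleen (Cyp20a1 at 0.86 and Cyp27a1 at 0.72) and Cyp27b1 was lower at −0.28, while 0 of 14 passed in liver (4 unadjusted).

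Markers of other cells moved with the spleen results. The summed intensity of 8 stroma genes was 8557 to 10607 in drug spleens and 3510 to 4463 in vehicle spleens, with 7 of 8 higher, Pdgfra by 1.40 and Mmp2 by 2.09 among them. Endothelial genes summed to 6973 to 8853 in drug spleens and 4028 to 5555 in vehicle spleens (5 of 6 higher, 1 lower), and macrophage genes to 31164 to 36266 in drug spleens and 16589 to 21857 in vehicle spleens (7 of 8 higher). B cell genes summed to 1417 to 2294 in drug spleens and 12048 to 15928 in vehicle spleens (4 of 4 lower). T cell genes summed to 4616 to 7267 in drug spleens and 5960 to 7548 in vehicle spleens (1 of 6 higher, 1 lower), and granulocyte genes to 286 to 2123 in drug spleens and 2050 to 11023 in vehicle spleens (4 of 4 lower). Hepatocyte genes summed to 280 to 823 in drug spleens and 436 to 934 in vehicle spleens, with 0 of 7 past the threshold (0 unadjusted) and Tat blank on every spleen array. Pancreas genes summed to 456 to 14719 in drug spleens, the highest in rat 2003, and to 262 to 920 in vehicle spleens (1 of 6 higher). The part of these cell types in the changes of Cyp1b1, Cyp4b1, Cyp2s1 and the other P450 genes was not tested.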

How the data were processed

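Liver and spleen RNA of 12 rats (5 µg each, biotin label, per the labels' protocols) was measured on 24 Affymetrix arrays. The authors deposited the measurements as log10 intensities. The base was inferred from the values: the span between percentiles 1 and 99 is 2143-fold as log10 and 10.1-fold as log2. Summary and scaling methods are not given in the sources used here. The fixed design had assumed log2, so values were multiplied by log2(10), and blanks (10.5%) were left missing.

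Genes with a value in each group entered the test. limma 3.58.1 in R 4.3.3 (lmFit, contrasts, eBayes) was fitted to all genes over 4 group means per tissue, or 8 for both tissues. Benjamini-Hochberg adjustment ran over all genes of a comparison with a threshold of 0.05. SE and 95% intervals are those of the fit, and 3 rats per group limit the precision. The drug effect is the mean of both housings. The fit was tested on simulated data.

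The members and lists were chosen with earlier results of these data known. Named genes are all members past the threshold, the 10 brightest in liver and up to 4 per direction with the largest changes in a comparison; the sequences shown were chosen by the calls in spleen. Labels tie liver and spleen of a number to 1 animal; over 10530 genes their deviations correlated at −0.058 to 0.17, highest with the own number in 11 of 12 animals. Alternatives were an offset of 16, quantile normalization, a filter at the median level, at least 2 values per group, the mean of all probe sets, eBayes trend and robust, leaving out each rat, the spleen arrays with over 1500 blanks as a batch term, and the animal as a replicate block. The batch term needs a value in rat 2005 and in 2001 or 2003. Probe sets naming several genes were not used. Whether probe sets naming a single gene also read closely related P450 genes could not be checked.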

Additional observations from a re-analysis of the deposited data

Results flagged for a closer look

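The drug effect in liver minus the drug effect in spleen passed the test of the difference in limma for 7 P450 genes. It was lower for Cyp2j3 (−2.04, limma adjusted p = 0.000749), Cyp4b1 (−1.45, adjusted p = 2.7e-05), Cyp1b1 (−1.17, adjusted p = 0.00858) and Cyp4f6 (−0.84, adjusted p = 0.02). It was higher for Cyp2a1 (1.45, limma adjusted p = 0.00394), Cyp2s1 (1.21, adjusted p = 5.79e-05) and Cyp2g1 (1.11, adjusted p = 0.000705). Among all genes 33.1% passed this test.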

How the results depend on the processing

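Over 73 results on single P450 genes, 1341 alternative values kept direction and side of the threshold in 1234 cases, lost the call in 104 and turned sign in 3, all 3 for Cyp4a8 in spleen with the mean of all probe sets (0.011 for the drug, 0.075 without wood, 0.377 for wood). In liver the drug count of 2 became 1 with quantile normalization, the mean of all probe sets or eBayes trend and robust, and 0 to 2 without 1 rat; the count with wood, 0, became 1 with the median filter or trend and robust. In spleen the median filter, which leaves 4 P450 genes, gave 3 for the drug (10), 2 without wood (9), 3 with wood (7) and 0 for wood (7). The offset gave 15 without wood. The blank division as a batch term gave 5 without wood, 1 for wood and 1 for the interaction (0). Without 1 rat the spleen counts were 8 to 13 for the drug, 8 to 14 without wood, 5 to 10 with wood, 3 to 7 for wood and 0 to 3 for the interaction. With the animal as a replicate block 31 genes differed between liver and spleen and 7 in drug response, the same counts as without the block, and no call changed. Over all genes, the liver drug count of 103 was 177 with the offset, 199 with the median filter, 206 with trend and robust and 35 to 114 without 1 rat, with 35 to 54 without any vehicle rat and 63 or 68 without 4005 or 4003. Without wood in liver 19 became 68 (median filter) and 42 (trend and robust), and 11 to 32 without 1 rat; with wood 6 became 10 (offset), 17 and 14. For wood and for the interaction in liver, 0 became 1 at most without 1 rat. In spleen the median filter gave 4980 of 7101 tested genes for the drug, against 7485 of 13614. The batch term gave 3658 of 13342 without wood, against 6140 of 13614. Wood gave 2545 (offset), 838 (median filter), 40 (batch term) and 654 to 1946 without 1 rat, against 1647. The interaction gave 62 (offset), 9 (median filter), 38 (2 values per group) and 45 to 1013 without 1 rat (1013 without 2005), against 96. The tissue difference gave 6526 with the median filter, against 10676. Other causes were not tested. Dim probe sets limit the spleen, where 4 of 42 P450 genes reach the median level.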

Other observations

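The probe set shared by Cyp2b2 and Cyp2b1, phenobarbital-inducible enzymes that hydroxylate cyclophosphamide in rat, names 2 genes and was in no comparison. Its log2 intensity had a lowest, median and highest value of 9.04, 9.39 and 10.64 in drug livers and 9.49, 9.998 and 10.54 in vehicle livers, and the groups overlapped. In spleen it had 5.14, 5.95 and 6.12 in drug rats and 5.22, 5.71 and 6.14 in vehicle rats. The probe set shared by Cyp4a3 and Cyp4a2 ran from 12.74 to 13.34 in drug livers and from 13.06 to 13.38 in vehicle livers.

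Cyp1a1, too often blank to be tested, was blank on all 12 liver arrays. In spleen it had 4.83 and 4.36 in drug rats without wood, with 1 blank, and 2.54, 4.51 and 1.501 in drug rats with wood. It was blank in the 3 vehicle rats without wood and had 1.78, 3.85 and 3.79 in vehicle rats with wood. The blank spleens were those of the 4 blank-rich arrays, with rat 2005 as the blank drug rat. Without wood, drug and blank counts therefore cannot be told apart for Cyp1a1. With wood, where all arrays had few blanks, its drug and vehicle values overlapped. Cyp7a1, the rate-limiting enzyme of bile acid synthesis and no gene of families 1 to 4, averaged 10.14 in drug livers and 8.56 in vehicle livers, a change of 1.58 ± 0.33 that did not pass in limma (adjusted p = 0.0657).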
